A study of Mus musculus with 24 samples.

Results

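The thermogenic and uncoupling genes comprise 8 named genes, Ucp1, Ucp2, Ucp3, Cidea, Ppargc1a, Dio2, Elovl3 and Prdm16, and their probes were found by gene symbol in the probe annotation. The annotation pairs 8 of 25697 probes, and 7 of 16593 genes, with these names. Ucp3 has 2 probes, each of the other 6 genes has 1, and Ucp2 was not analysed here. Illumina bead arrays gave the transcript levels of male C3HeB/FeJ mice, all 117 days old, that were either wild-type or heterozygous for an allele of the type A endothelin receptor gene from a chemical mutagenesis (ENU) screen, spelled Endra in the labels and Ednra Y129F in the title. Per its title, the line stands as a model of DiGeorge and velocardiofacial syndromes. There were 6 groups of 4 arrays, heterozygous and wild-type heart, bone and white fat. The hearts came from 8 mice of their own, while bone and white fat share animals with 7 mouse numbers, because 1 number stands under both genotypes.

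Heat production in fat rests on mitochondria that burn fuel without making ATP. In brown fat, and in the beige cells that can appear within white fat, cold acts through adrenergic receptors and cyclic AMP to raise Ucp1, the carrier that lets protons leak back across the inner mitochondrial membrane. Ppargc1a encodes a coactivator that links this signal to mitochondrial genes, Prdm16 a transcription factor of brown and beige cell identity, Dio2 the deiodinase that activates thyroid hormone inside the cell, and Elovl3 a fatty acid elongase of brown fat. Cidea encodes a lipid droplet protein used as a marker of brown and beige fat, and Ucp3 is a relative of Ucp1 that is known mainly from skeletal muscle, heart and brown fat.

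The start regions of 3 members are printed because these members were measured on the arrays, varied between them and have an entry among the RefSeq promoters of mouse build GRCm38.p6, in which 6 of the 8 names were found. Each run holds the 250 bases before the annotated start of the gene, in the direction of transcription, and capitals mark every match, on either strand, to TGACG (the core of the cyclic AMP response element), AGGTCA (a core motif of nuclear receptor sites), TATAAA or CCAAT. The full cyclic AMP element TGACGTCA, which contains TGACG, was searched as well.
Ucp1, chr8:83290098-83290347, plus strand: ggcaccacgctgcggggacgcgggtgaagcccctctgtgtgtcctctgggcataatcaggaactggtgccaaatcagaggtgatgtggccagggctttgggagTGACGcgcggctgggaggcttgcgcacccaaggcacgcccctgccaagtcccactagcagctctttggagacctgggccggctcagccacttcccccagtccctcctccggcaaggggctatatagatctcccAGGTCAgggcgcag
Ucp3, chr7:100472741-100472990, plus strand: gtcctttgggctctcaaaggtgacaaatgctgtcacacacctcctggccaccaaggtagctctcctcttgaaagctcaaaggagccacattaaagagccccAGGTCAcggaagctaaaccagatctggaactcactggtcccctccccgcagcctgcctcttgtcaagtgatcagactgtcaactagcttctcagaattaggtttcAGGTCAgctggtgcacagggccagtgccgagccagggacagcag
Ppargc1a, chr5:51567726-51567975, minus strand: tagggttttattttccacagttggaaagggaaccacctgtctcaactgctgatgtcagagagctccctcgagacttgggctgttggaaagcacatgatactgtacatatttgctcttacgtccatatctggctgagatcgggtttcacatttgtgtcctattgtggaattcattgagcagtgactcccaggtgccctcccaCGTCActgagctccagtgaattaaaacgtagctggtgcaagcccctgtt

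The Ucp1 window holds TGACG at base -147 and AGGTCA at base -14 from the start. The Ucp3 window holds AGGTCA at bases -149 and -44, and the Ppargc1a window holds TGACG on the opposite strand at base -49. Such windows are common, since 17.9% of 27025 promoter windows hold TGACG and AGGTCA stands in 13.8%. The letters TATAAA stand in 13.0%, CCAAT in 34.5% and the full element TGACGTCA in 1.62% of the windows, and none of the 3 printed ones holds any of them. These matches describe letters and not binding.

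A probe counts as detected on an array when its deposited detection p-value is under 0.05. Arrays detected 12956 to 13710 probes in white fat, 13353 to 13919 in bone and 9931 to 12143 in heart. The lowest heart value belongs to wild-type array 4, which stood apart from the other hearts, with a mean correlation of 0.905 to the other heart arrays against at least 0.974 for each of the others. The white adipocyte list was detected with 11 of 11 genes on every white fat array, 8 to 9 on bone arrays and 5 to 6 on heart arrays. All 12 skeletal muscle genes were detected on every bone array, and also on white fat heterozygous array 2, where the other white fat arrays detected 3 to 8 of them. Mean raw intensity was 553 to 666 on heterozygous and 702 to 820 on wild-type white fat arrays, so in white fat genotype and array brightness cannot be told apart. Within a group every array has a mouse number of its own.

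In white fat, 4 members were measured, and none passed the test of heterozygous against wild-type. Levels are log2 normalized intensities, changes are heterozygous minus wild-type with standard errors, and a gene passed at an adjusted p under 0.05 from limma with Benjamini-Hochberg adjustment over 9292 genes. The share of all genes called was 0.0108%, a single gene, while 29.6% had an unadjusted p under 0.05. Cidea and Ppargc1a had higher means in heterozygous mice, by 0.48 and 0.77, and Ucp1 and Ucp3 lay within 0.2 of the wild-type mean. Prdm16, Dio2 and Elovl3 were not detected on any array of any tissue.

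Cidea, the lipid droplet protein, read 9.70, 9.71, 9.94 and 9.91 on the 4 heterozygous white fat arrays. The wild-type arrays read 9.10, 9.29, 9.48 and 9.47. Every heterozygous array lay above every wild-type array, a pattern seen, in the same direction, in 8.94% of all genes tested. The change was 0.48 ± 0.104 (SE, n = 4 per group), or 1.39-fold, with a 95% interval of 0.25 to 0.71. Its adjusted p in limma was 0.0651, which missed the threshold, and its unadjusted p was 0.000985. The adjusted p became 0.0328 when wild-type array 3 was left out and 0.0327 when array 4 of that genotype was left out. In limma the unadjusted p of these fits stayed near that of the main fit, at 0.00101 and 0.000894. The adjusted p thus fell with the p-values of all genes and not with that of Cidea. It lay between 0.0859 and 0.191 without any 1 of the other 6 arrays. With array brightness, taken as an array's mean log2 raw intensity, as a covariate the change was 0.15 with an adjusted p of 0.988. Macrophage genes were lower in heterozygous means at 9 of 9 measured genes, beside 45.1% of all genes, with a median change of -0.56. An unadjusted p under 0.05 in limma was found for 8 of the 9, beside 14% of all genes on the lower side. Of the 9, 0 passed, beside 0.0108% of all genes, and their part in the Cidea values was not tested. In bulk tissue, fewer cells of a type and less RNA per cell cannot be told apart.

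Ppargc1a, the coactivator of mitochondrial genes, read 6.65, 6.80, 7.07 and 7.43 on heterozygous white fat arrays. On wild-type arrays it read 5.73, 5.41, 6.72 and 7.00. Wild-type arrays 1 and 2 lay below all the others, and arrays 3 and 4 lay among the heterozygous values. The change was 0.77 ± 0.341 (SE, n = 4 per group), or 1.71-fold, with a 95% interval of 0.01 to 1.53 and an adjusted p of 0.164 in limma. Wild-type arrays 1 and 2 were also the brightest of the tissue, with mean raw intensities of 820 and 811. With array brightness as a covariate the sign turned, to -0.28, with an adjusted p of 0.989.

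Ucp1, the proton leak carrier of brown fat, was detected on all 8 white fat arrays at low levels. It read 5.91, 5.60, 6.53 and 5.99 in heterozygous and 5.75, 6.01, 6.44 and 6.04 in wild-type mice. The groups overlapped over most of their range, and the highest value of each genotype belonged to its array 3. The change was -0.05 ± 0.214 (SE, n = 4 per group), with a 95% interval of -0.53 to 0.42 and an adjusted p of 0.887 in limma. With array brightness as a covariate the change was -0.74, with an adjusted p of 0.988. Without white fat arrays that share a mouse number the change was 0.08.

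Ucp3 read 7.83, 8.33, 8.18 and 8.31 in heterozygous and 8.43, 8.24, 8.40 and 8.23 in wild-type white fat at probe ILMN_2452102, which stood for the gene there. The second probe, ILMN_1233132, read 7.03, 7.49, 7.33 and 7.26 in heterozygous and 7.37, 7.21, 7.66 and 7.18 in wild-type mice. At both probes heterozygous array 1 was the lowest array and the other 7 arrays were interleaved. The change was -0.16 ± 0.125 (SE, n = 4 per group) at the former probe, with a 95% interval of -0.44 to 0.12 and an adjusted p of 0.394 in limma, and -0.08 at the latter. Heterozygous array 2, which carried the skeletal muscle genes, lay within the range of the wild-type arrays at both probes. Without that array the change was -0.22 at ILMN_2452102.

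**Figure D1:**
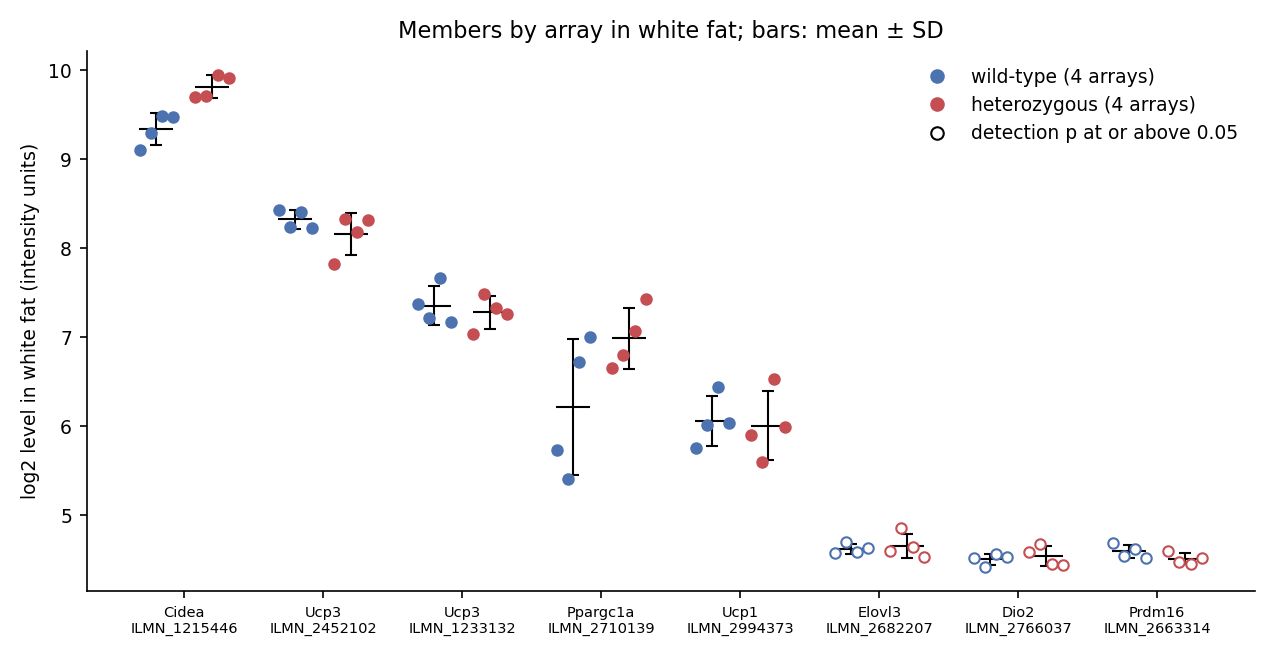
Log2 level (vertical axis, normalized intensity) of the 8 probes on the 8 white fat arrays, wild-type in blue and heterozygous in red, with filled points where the probe was detected and black bars for the mean and SD of 4 arrays. At Cidea the heterozygous arrays, from 9.70 to 9.94, lie above the wild-type arrays, from 9.10 to 9.48, and at the other measured probes the genotypes overlap.

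The remaining 3 members gave only bounds. Prdm16, the identity factor, had raw intensities of 105 to 166 over the 24 arrays and detection p-values of 0.229 or more. Elovl3, the elongase, had raw intensities of 109 to 163 with detection p-values of 0.185 or more. Dio2, the deiodinase, had raw intensities of 110 to 155 with detection p-values of 0.104 or more. None was well above background on any of 24 arrays, so no fold change or order of tissues is given for them.

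Across tissues the 24 arrays were normalized together, which gives levels on a common scale that differs from the scale within a tissue. In wild-type mice, 3 of 4 members differed between white fat and bone and 3 of 4 between white fat and heart, beside 66.5% and 70.2% of the 10557 genes tested. Between bone and heart 1 of 4 passed, beside 74.5% of all genes. These shares are large for all genes, and the members' counts are read only as an order of levels. The tests took 1 estimate of spread per gene from all 24 arrays, so the hearts also entered the comparison of white fat with bone.

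On this scale Cidea was highest in heart, at 9.96 ± 0.919 (SD, n = 4) in wild-type mice, followed by white fat at 8.90 ± 0.191 and bone at 5.99 ± 0.610. Each step passed the test, with white fat 2.91 above bone (adjusted p = 3.79e-06), white fat 1.06 below heart (adjusted p = 0.0271) and bone 3.96 below heart (adjusted p = 1.17e-08), all from limma. Without heart wild-type array 4 the gap between white fat and heart was -1.51, with an adjusted p of 0.000637. That gap lost its call when heart wild-type array 1, 2 or 3 or white fat wild-type array 1 was left out, with adjusted p-values up to 0.0990. Scaling to the median left a gap of -0.65 (adjusted p = 0.185 in limma), and the authors' intensities, which are scaled within a tissue, gave 0.05 (adjusted p = 0.966).

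Ppargc1a had wild-type levels of 7.15 ± 0.389 (SD, n = 4) in bone, 6.70 ± 0.572 in heart and 5.78 ± 0.675 in white fat. The 12 skeletal muscle genes averaged 13.23 to 13.58 on wild-type bone arrays, 7.48 to 7.91 on hearts and 5.91 to 6.28 on white fat arrays. The part of muscle in the Ppargc1a level of the bone samples was not tested. White fat was lower than bone by 1.38 (adjusted p = 0.00125 in limma) and lower than heart by 0.93 (adjusted p = 0.0147), and bone and heart did not differ past the threshold, at 0.45 (adjusted p = 0.218). Without heart wild-type array 4 the gap between white fat and heart was -1.20, with an adjusted p of 0.00134. That gap missed the threshold without heart wild-type array 2, or white fat wild-type array 1 or 2, where adjusted p-values were 0.0506 to 0.0688. Scaling to the median reduced it to -0.33 (adjusted p = 0.389 in limma), and the authors' intensities turned it to 0.60 (adjusted p = 0.220). Bone and heart did differ past the threshold under these settings, with bone higher by 1.02 (adjusted p = 0.0109) and by 1.85 (adjusted p = 0.000722).

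For Ucp3 the probes did not give the same order of tissues. At ILMN_2452102 the wild-type level was 7.84 ± 0.113 (SD, n = 4) in white fat, 6.56 ± 1.43 in heart and 6.34 ± 0.147 in bone. White fat was 2.82-fold higher than bone (adjusted p = 0.00396 in limma) and higher than heart by 1.28 (adjusted p = 0.00772), and bone and heart did not differ past the threshold, at -0.22 (adjusted p = 0.641). Heart wild-type array 4 read 4.42 there and was not detected, and without it white fat was 0.57 higher than heart (adjusted p = 0.00314) and bone was 0.93 lower than heart (adjusted p = 1.64e-05). At ILMN_1233132 the wild-type level was 6.99 ± 0.601 in heart, 6.83 ± 0.226 in white fat and 5.75 ± 0.385 in bone, so heart came before white fat.

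Ucp1 had wild-type levels of 6.16 ± 2.22 (SD, n = 4) in heart, 5.61 ± 0.245 in white fat and 5.18 ± 0.607 in bone, and none of the 3 differences passed. White fat minus bone was 0.43 ± 0.817 (SE, adjusted p = 0.664 in limma), and this SE takes in the spread of the hearts. Ucp1 was detected on 8 of 8 white fat arrays, 5 of 8 bone arrays and 5 of 8 heart arrays. The spread of single arrays set the tissues apart more than the means did, from 5.23 to 6.03 in white fat, 4.54 to 7.53 in bone and 4.48 to 9.29 in heart on the common scale.

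**Figure D2:**
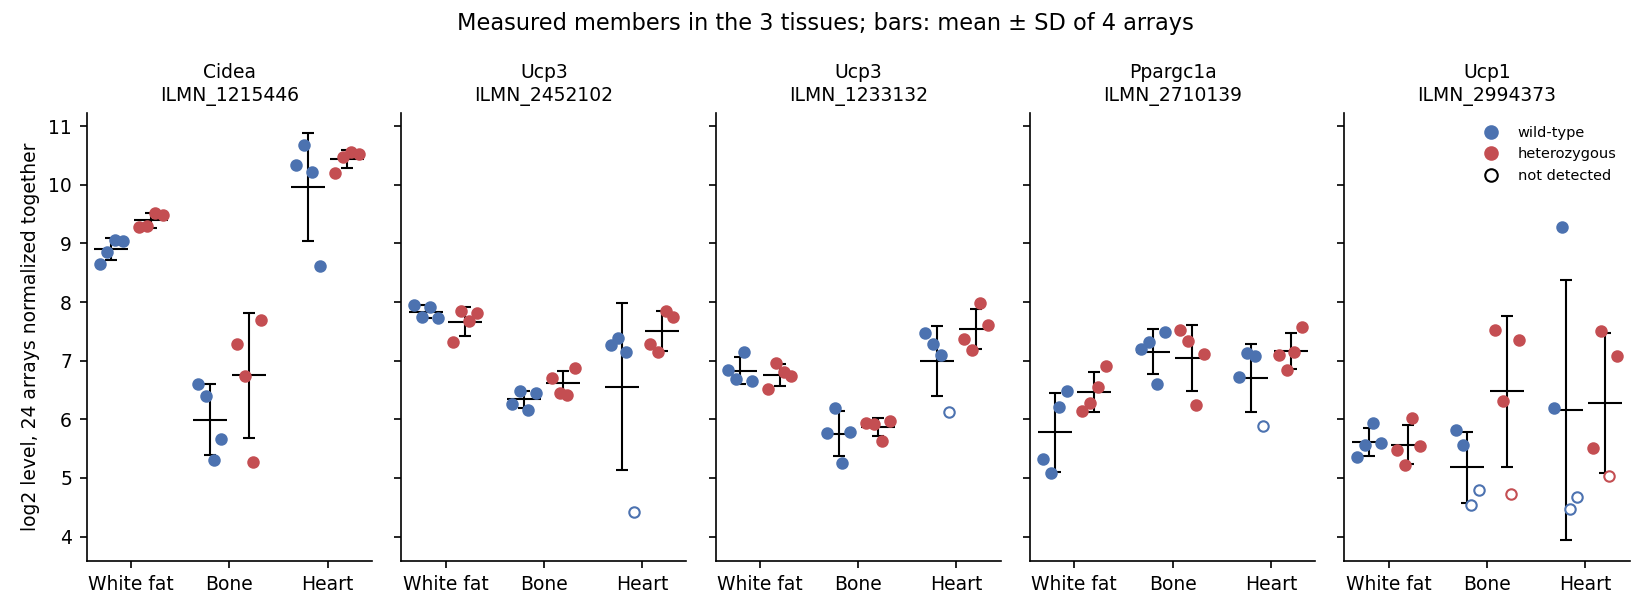
Log2 level (vertical axis, 24 arrays normalized together) of the 5 measured member probes in white fat, bone and heart, wild-type in blue and heterozygous in red, open where not detected, with the mean and SD of 4 arrays. Cidea is lowest in bone and highest in heart on this scale, while the authors' scaling within a tissue puts white fat 0.05 above heart, and Ucp1 spans 4.48 to 9.29 in heart against 5.23 to 6.03 in white fat.

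In bone, 0 of 4 measured members passed the test of genotype, beside 0.074% of 9460 genes called. Ucp1 read 7.61, 6.39, 4.78 and 7.44 in heterozygous and 5.89, 5.62, 4.61 and 4.85 in wild-type bone. Heterozygous arrays 1, 2 and 4 lay above every wild-type array, while heterozygous array 3 lay among the lowest. The change was 1.31 ± 0.498 (SE, n = 4 per group), or 2.48-fold, with a 95% interval of 0.24 to 2.39 and an adjusted p of 0.184 in limma, and an unadjusted p under 0.05 was found for 18.5% of genes. The probe was detected on 3 of 4 heterozygous and 2 of 4 wild-type arrays, so part of this difference is measured against background. Leaving out heterozygous array 3 gave 1.90 (adjusted p = 0.0924), and leaving out any other array gave 0.96 to 1.53.

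Cidea read 7.36, 6.83, 5.31 and 7.78 in heterozygous and 6.69, 6.48, 5.35 and 5.73 in wild-type bone, a change of 0.76 ± 0.437 (SE, n = 4 per group) with an adjusted p of 0.374 in limma. Its arrays fell in nearly the order of Ucp1, with arrays 3 of both genotypes lowest. Over the 8 bone arrays Cidea and Ucp1 had a Pearson correlation of 0.965 and a Spearman correlation of 0.952, and 0.961 without the 2 arrays farthest from the Cidea median. This pair was 1 of 18 pairs of members described over 3 tissues. In white fat the same pair gave 0.300 and in heart 0.474. In bone Ucp1 was detected on 3 of 4 heterozygous and 2 of 4 wild-type arrays, so its lowest values in this correlation lie at background. The white adipocyte gene Adipoq, the adiponectin hormone, read 10.42 to 11.17 on the bone arrays, with 10.88 and 10.94 on the arrays 3 where Ucp1 and Cidea were lowest. Plin1, of the same list, read 5.15 on heterozygous and 4.89 on wild-type array 3, the lowest of each genotype. It lay near background in bone and was not detected on wild-type arrays 1 and 3, so Adipoq alone does not stand for the list. The muscle creatine kinase Ckm, singled out after its values were seen, read 12.83 and 12.96 on the arrays 3, the lowest of each genotype, and 13.11 to 13.44 on the other bone arrays. The mean of the 12 skeletal muscle genes, on the common scale, was lowest among heterozygous arrays on array 3, at 13.15, and among wild-type arrays on array 1, at 13.23, with array 3 next at 13.31. Of the brown adipocyte list, Cox8b and Cox7a1, cytochrome oxidase subunits that muscle shares, were detected on all 8 bone arrays and were also lowest in each genotype on the arrays 3. Cox8b read 12.58 and 12.75 there and 13.00 to 13.16 on the others, and Cox7a1 read 11.39 and 11.77 there and 11.91 to 12.27 on the others. Lhx8 was detected on 3 of 8 bone arrays, and Zic1, Prdm16, Elovl3 and Kcnk3 on 0 of 8. The part of these genes in the shared variation of Ucp1 and Cidea was not tested.

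**Figure D3:**
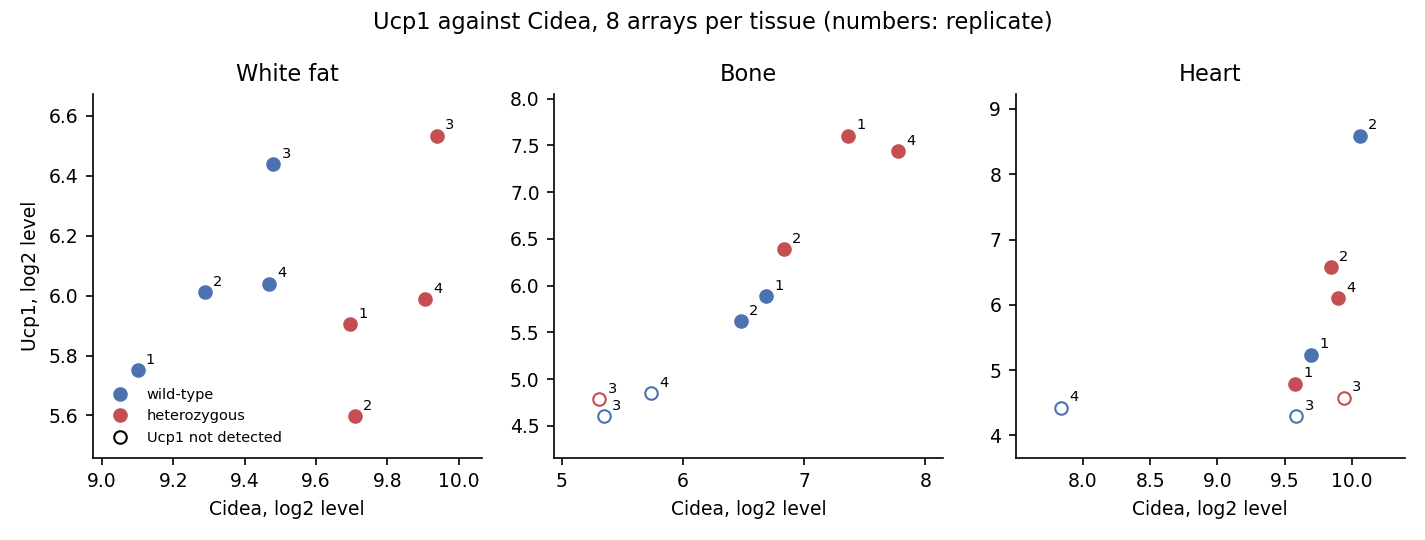
Ucp1 (vertical axis) against Cidea (horizontal axis), both as log2 levels within a tissue, for the 8 arrays of white fat, bone and heart, wild-type in blue and heterozygous in red with replicate numbers, open where Ucp1 was not detected. In bone the points follow a line (r = 0.965), in heart wild-type array 2 reaches 8.59 for Ucp1, and in white fat the pair shows r = 0.300.

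Ucp3 in bone, at ILMN_2452102, read 6.79, 6.54, 6.49 and 6.96 in heterozygous and 6.35, 6.56, 6.25 and 6.52 in wild-type mice. The change was 0.28 with an adjusted p of 0.302 in limma. Ppargc1a read 7.59, 7.42, 6.33 and 7.20 in heterozygous and 7.27, 7.41, 6.68 and 7.57 in wild-type bone, a change of -0.10 with an adjusted p of 0.870. For Ppargc1a too the arrays 3 of both genotypes were the lowest. Neither gene separated the genotypes.

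In heart, 0 of 4 members passed, beside 0% of 8535 genes called, and 5.55% of genes (474) had an unadjusted p under 0.05 in limma. Ucp1 read 4.79, 6.58, 4.58 and 6.11 in heterozygous and 5.24, 8.59, 4.30 and 4.43 in wild-type hearts. Wild-type array 2 was the highest by a wide margin, and Ucp1 was not detected on wild-type arrays 3 and 4 and heterozygous array 3. The change was -0.13 ± 0.930 (SE, n = 4 per group), with a 95% interval of -2.24 to 1.99 and an adjusted p of 0.949, and it was 0.86 without wild-type array 2. On wild-type array 2 Adipoq read 6.74, within its range of 5.40 to 6.98 over the hearts. It is 1 of 11 white adipocyte genes, of which 5 to 6 were detected on heart arrays, so it does not stand for the list. On the common scale the 11 genes averaged 7.27 to 7.31 on heterozygous and 7.29 to 7.47 on wild-type hearts. Of the 9 brown adipocyte genes, Cidea, Cox7a1, Cox8b and Kcnk3 were detected on all 8 heart arrays, Ucp1 on 5 of 8, and Zic1, Lhx8, Prdm16 and Elovl3 on 0 of 8. Over the hearts Cox7a1 read 14.25 to 14.44, Cox8b 13.99 to 14.18 and Kcnk3 7.54 to 10.10, with 14.25, 14.01 and 9.82 on wild-type array 2. The part of fat cells in the Ucp1 value of that array was not tested.

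Cidea read 9.58, 9.84, 9.94 and 9.90 in heterozygous and 9.70, 10.06, 9.59 and 7.84 in wild-type hearts. The low value belongs to wild-type array 4, the array that stood apart. The change of 0.52 (adjusted p = 0.610 in limma) became 0.03 without it. Ucp3 (ILMN_1233132) read 6.44, 6.22, 7.11 and 6.70 against 6.54, 6.33, 6.12 and 5.18, a change of 0.57 that became 0.28 without that array. Ppargc1a read 6.13, 5.84, 6.17 and 6.65 against 5.72, 6.16, 6.09 and 5.01, a change of 0.45 that became 0.21. For all 3 genes the lowest heart array was wild-type array 4.

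**Figure D4:**
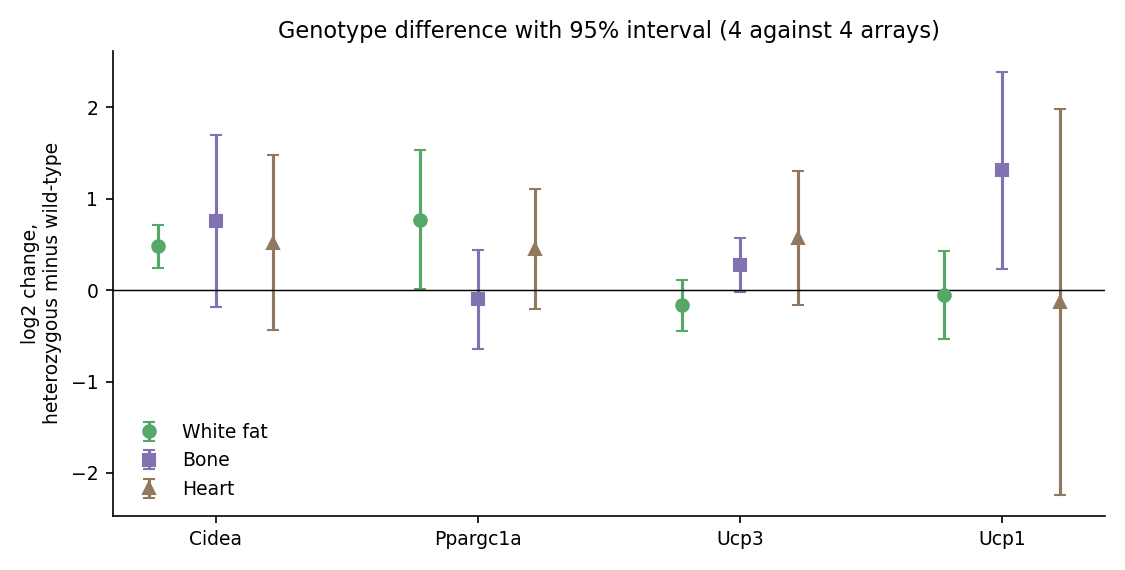
Log2 change, heterozygous minus wild-type (vertical axis), with its 95% interval for the 4 measured members in white fat (circles), bone (squares) and heart (triangles), 4 against 4 arrays each. Ucp3 is shown at ILMN_2452102 in white fat and bone and at ILMN_1233132 in heart. The interval is narrowest for Cidea in white fat, 0.25 to 0.71, and widest for Ucp1 in heart, -2.24 to 1.99.

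The genotype effect was compared between tissues in 1 fit over the 24 arrays. No member passed, beside 0.287% of 7659 genes for white fat minus bone and 5.52% for white fat minus heart. For Ucp1 the effect in white fat was 1.34 below that in bone on the log2 scale, with a 95% interval of -3.79 to 1.10 and an adjusted p of 0.611 in limma. For Ppargc1a it was 0.79 above that in bone, with an interval of -0.23 to 1.82 and an adjusted p of 0.430. The effect on Cidea differed by -0.26 from bone and by 0.01 from heart, with intervals of -1.57 to 1.05 and -1.21 to 1.23. For Ucp3, at ILMN_2452102, the difference between white fat and heart was -1.12 (adjusted p = 0.205) and -0.41 without heart wild-type array 4. In the fit within heart this probe had a change of 0.78, where ILMN_1233132 had 0.57. These intervals span folds in either direction, so this fit does not separate the tissues' effects on the members. It takes 1 estimate of spread per gene from the 24 arrays, so the hearts also enter the intervals for white fat minus bone. For Cidea that difference had an SE of 0.628, where the fits within a tissue gave 0.104 in white fat and 0.437 in bone.

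The genes whose levels were most like a member's over the 8 white fat arrays were taken by Pearson correlation, 3 per member. For Cidea they were Lime1, an adaptor of lymphocyte signalling (r = 0.990), Flad1, which makes the flavin cofactor FAD (r = 0.988), and Zfp280d, a zinc finger gene (r = 0.985). For Ppargc1a they were Echdc2 (r = 0.995), Oxld1 (r = 0.989) and Bcat2, the mitochondrial aminotransferase of branched amino acids (r = 0.984). Without the 2 arrays farthest from the member's median these 6 correlations were 0.916 to 0.985. For Ucp1 the closest were Rnpepl1 (r = 0.927), Grb10, an adaptor of insulin signalling (r = 0.906), and Exoc2, an exocyst subunit (r = 0.893). For Ucp3 they were D17H6S56E-5 (r = 0.923), 2510039O18Rik (r = 0.921) and Slc8b1, the mitochondrial sodium calcium exchanger (r = 0.917). Without the 2 farthest arrays the 6 values for Ucp1 and Ucp3 were 0.599 to 0.799. The points share their array and its brightness, and the genes are the highest of 9292, so the values are a description.

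The wider program was read from lists of 118 related genes, of which 84 were measured in white fat. In white fat 0 of 84 passed, 52 had a higher and 32 a lower heterozygous mean, and the median change was 0.10, beside 0.03 over all 9292 genes, of which 54.9% were higher. An unadjusted p under 0.05 was found in 20 genes with a higher and 7 with a lower mean, 32.1% of the 84 beside 29.6% of all genes in limma. By direction these were 23.8% of the 84 beside 15.6% of all genes on the higher side, and 8.33% beside 14% on the lower side. Whether these shares differ was not tested.

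Of the brown fat program, mitochondrial and fat-burning genes that are high in brown fat, 25 were measured, 20 with a higher and 5 with a lower mean and a median change of 0.22. Other lists had medians above that of all genes too. Of the white adipocyte markers 9 of 11 were higher with a median of 0.16, of the skeletal muscle genes 7 of 7 measured with a median of 1.03, of neutrophil genes 5 of 5, of erythroid genes 3 of 3 and of mesothelial genes 7 of 7, and 0 genes of these lists passed. The measured muscle genes averaged 7.19 to 10.67 on heterozygous arrays, highest on array 2, and 7.19 to 7.86 on wild-type arrays. The measured neutrophil genes averaged 8.33 to 11.06 on heterozygous and 7.88 to 8.40 on wild-type arrays. Medians below that of all genes were found for macrophage (-0.56), osteoblast (-0.11), endothelial (-0.0271) and lymphocyte (-0.00164) genes. The part of these cells in the brown fat program was not tested. Examples are Gpd2, the mitochondrial glycerol phosphate dehydrogenase (0.48 ± 0.147 SE, adjusted p = 0.0826), Cox4i1, a subunit of cytochrome c oxidase (0.30 ± 0.0989, adjusted p = 0.0939), and Cpt2, which loads fatty acids inside mitochondria (0.18, adjusted p = 0.103). On the lower side stood Etfdh, which passes electrons from fat oxidation to ubiquinone (-0.27, adjusted p = 0.0931), and Acaa2, the last enzyme of a fat oxidation cycle (-0.22, adjusted p = 0.198). All p-values are from limma with n = 4 per group, and none passed.

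Among 25 measured regulators of thermogenesis, 15 were higher and 10 lower, with a median of 0.05. Ppargc1b, the close relative of Ppargc1a, had a change of 1.06 ± 0.244 (SE, adjusted p = 0.0676), Fndc5, the precursor of irisin, 0.74 (adjusted p = 0.0676), and Sirt3, a mitochondrial deacetylase, 0.29 (adjusted p = 0.0886). Cebpb, a transcription factor of fat cell differentiation, had -0.71 ± 0.132 (SE, adjusted p = 0.0602), the smallest adjusted p among the related genes in limma. Gnas, the stimulatory G protein subunit that adrenergic receptors use, had -0.26 (adjusted p = 0.0787), and Npr3, the clearance receptor of natriuretic peptides, had -0.35 (adjusted p = 0.0810).

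The 12 measured repressors were divided, 6 higher and 6 lower, with a median of 0.00. Zfp423, which holds white fat identity, had -0.38 (adjusted p = 0.0686 in limma) and Twist1 -0.39 (adjusted p = 0.142), while Hdac3, a histone deacetylase, had 0.24 (adjusted p = 0.0763) and Nrip1, a corepressor of nuclear receptors, 0.49 (adjusted p = 0.123). Of 6 beige markers, 4 were higher and 2 lower, with Hoxc9 at 0.35 (adjusted p = 0.0867) and Epsti1 at -0.17 (adjusted p = 0.482). Genes of thyroid hormone handling gave 2 higher and 2 lower, among them Thrsp, a thyroid hormone responsive gene of fat synthesis, at 0.65 (adjusted p = 0.202) and Slc16a10, a transporter, at -0.19 (adjusted p = 0.256). None of these passed.

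Among 6 elongases and CIDE relatives, 2 were higher and 4 lower. Cidec, the relative of Cidea that enlarges lipid droplets in white fat, had a change of 0.01 ± 0.0418 (SE, adjusted p = 0.893 in limma), Cideb had 0.82 ± 0.400 (adjusted p = 0.197), and Elovl5, an elongase of polyunsaturated fatty acids, had -0.16 (adjusted p = 0.111). Of 6 mitochondrial carriers, 3 were higher and 3 lower, with Slc25a1, the citrate carrier, at 0.36 ± 0.0821 (SE, adjusted p = 0.0676) and Slc25a10, the dicarboxylate carrier, at 0.24 (adjusted p = 0.0939). Slc25a14, also called Ucp5, was at -0.09 (adjusted p = 0.605). In this set too no gene passed.

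Of 9 brown adipocyte marker genes on the array, 4 of them members, Zic1, Prdm16 and Elovl3 were detected on 0 of 8 white fat arrays. Cidea, Ucp1, Cox8b, Cox7a1 and Kcnk3 were detected on 8 of 8 and Lhx8 on 7 of 8. Cox8b, a cytochrome oxidase subunit shared by brown fat, heart and muscle, read 11.30 to 11.87 on heterozygous and 11.08 to 11.53 on wild-type white fat arrays. Detection of the list was 6 of 9 genes on each heterozygous array and 5 to 6 of 9 on wild-type arrays.

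**Figure D5:**
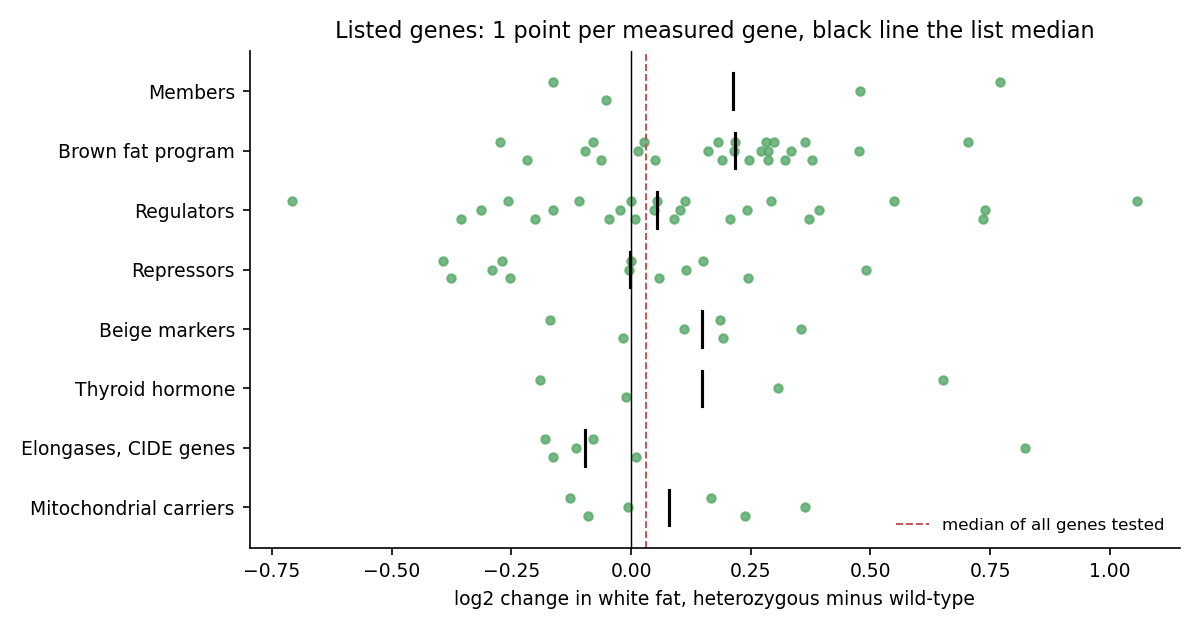
Log2 change in white fat, heterozygous minus wild-type (horizontal axis), for the measured members and 7 lists of related genes, 1 point per gene, with a black line for each list's median and a dashed line for the median of all genes tested, 0.03. The brown fat program has its median at 0.22 with 20 of 25 genes above 0, and the repressors have theirs at 0.00.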

How the data were processed

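RNA from 24 samples was hybridized to Illumina bead arrays, with Trizol and RNeasy extraction and biotin labelling per the labels' protocols and GenomeStudio 2011.1 per the submitters' processing notes. The deposited value table holds raw intensities, read as such from its values. The authors' other deposited table holds background-subtracted intensities scaled within a tissue, with detection p-values, and served as an alternative. This is the reverse of what the plan assumed.

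In limma 3.58.1 under R 4.3.3, raw intensities were corrected by normexp with detection p-values, offset 16, and quantile-normalized within a tissue on the log2 scale. Probes with a detection p under 0.05 on at least 4 of 8 arrays were kept, and the probe with the highest mean stood for a gene. Symbols came from the probe annotation, which gives 23978 probes 1 symbol, 0 several and 1719 none. Models had genotype only, with a variance trend. For tissues, 24 arrays were fitted together with the animal as a random block (consensus correlation -0.120 for tissue contrasts and -0.142 for differences of genotype effects, statmod 1.5.0). An animal was defined by genotype and replicate number, with hearts apart, so the mouse number under both genotypes counted as a separate animal in each.

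Members and lists were chosen with earlier results of these data known. Related genes were named by the smallest unadjusted p, up to 3 per direction in the 2 largest lists and 2 in the others, and genes of the marker lists are named where they bear on a tissue label or a member. Alternatives covered background, offset, normalization, filter, probes, trend, array weights, brightness, replicate block, mouse numbers and each array left out. The fit and its calls were tested on simulated log2 levels, with noise drawn separately for each probe and array. Background correction, normalization and effects shared by an array, such as brightness, were not part of that test. At 1.5-fold, 62.7% of 67 changed genes were recovered over 9292 genes in white fat, 68.7% of 67 over 9460 in bone and 25.4% of 67 over 8535 in heart. The changed genes were drawn at random from all genes kept, whatever their level or spread. These shares therefore do not give the recovery for the members. The number of arrays limits the precision.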

Additional observations from a re-analysis of the deposited data

Results flagged for a closer look

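Of 30 groups of 4 arrays checked for a value that stands apart from its group, 2 had one, and chance gives about 1 in 20 groups. At Ucp3 probe ILMN_1233132, bone heterozygous array 3 read 5.70, where the other 3 heterozygous arrays read 6.00 to 6.04. This is the bone array on which Ucp1, Cidea and Ppargc1a were also lowest among heterozygous arrays. At Ucp3 probe ILMN_2452102, heart wild-type array 4 read 4.26, where the other 3 wild-type hearts read 6.17 to 6.45. The probe was not detected there, and the array detected 9931 probes in all.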

How the results depend on the processing

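In white fat 0 members passed. The count was 1, Cidea, with detection p under 0.01 on all 8 arrays and with array weights, and 2, Cidea and Ppargc1a, with the replicate block. Related genes went from 0 to 1, 18 and 13 under those settings. These settings also moved the calls over all genes, from 1 to 162 of 7577, 1654 and 1302 of 9292. Leaving out 1 array gave 0 to 1 members and 0 to 11 related genes (8 when wild-type array 3 was dropped, 11 when array 4 was), with 854 and 1153 calls over all genes. The replicate block gave Cidea an adjusted p of 0.0108 and Ppargc1a 0.0360 in limma. Same-numbered heterozygous and wild-type arrays deviated together in white fat with correlations of -0.06 to 0.36 (mean 0.193). There 3 of 4 arrays matched their own number best, and the mean for unlike numbers was -0.0657. In bone the same-number correlations were -0.07 to 0.05 and in heart -0.15 to 0.16. These values do not settle whether the numbers pair the white fat arrays, and the main models had no replicate block. The counts of 0 in bone, heart and both comparisons of genotype effects, and of 3 between white fat and bone, held under every alternative run.

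Between wild-type white fat and heart the count of 3 became 1, Ucp3, with median scaling and with the authors' normalized intensities, and 1 to 3 without 1 array (1 without heart wild-type array 2 or white fat wild-type array 1). Between bone and heart the count of 1 became 2, Ppargc1a added, with median scaling and with the authors' intensities, and 1 to 2 without 1 array (2 without heart wild-type array 4). The authors' intensities are scaled within a tissue. With them white fat minus heart turned to 0.43 for Ucp1, 0.0451 for Cidea and 0.60 for Ppargc1a, bone minus heart to 0.59 for Ucp3, and the genotype effect in white fat minus heart to 0.14 for Ucp1 and -0.0416 for Cidea. Median scaling gave 0.0493 for Ucp3, bone minus heart, and -0.34 for Cidea, genotype effect in white fat minus heart. No background correction turned genotype effects to 0.0607 (Cidea, white fat minus bone), 0.11 (Ucp1, white fat minus heart) and -0.00868 (Cidea, white fat minus heart).

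In white fat, brightness as a covariate turned Ppargc1a to -0.28, Car4 to -0.00833, Epsti1 to 0.13, Crym to -0.13, Cideb to -0.11 and Elovl1 to 0.0101. Without both arrays of 1 mouse number Ucp1 was 0.0784 and P2rx5 0.0691, and the authors' intensities gave P2rx5 0.00536. In heart, normalizing all 24 arrays together turned Ucp1 to 0.13. Leaving out 1 array turned the sign of further results. In white fat Ucp1 ranged from -0.23 to 0.0831, Cidec from -0.00694 to 0.0184, Dio3 from -0.11 to 0.11 and P2rx5 from -0.12 to 0.0808, while Ppargc1a in bone ranged from -0.29 to 0.17 and Ucp1 in heart from -0.57 to 0.86. The genotype effect in white fat minus heart ranged from -1.21 to 0.39 for Ucp1 and -0.23 to 0.46 for Cidea, and minus bone from -0.75 to 0.0600 for Cidea. Wild-type white fat minus heart ranged from -1.11 to 0.50 for Ucp1, and bone minus heart from -1.54 to 0.0636 for Ucp1 and -0.93 to 0.0607 for Ucp3. The causes of these turns were not tested.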
